A study of Mus musculus with 12 samples.

Results

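The cytosolic heat shock chaperones are the proteins outside the endoplasmic reticulum (ER) whose genes are known targets of heat shock factors. Here their RNA was measured in cerebellum from Ciz1 knockout mice and controls. The 10 genes were chosen by name (Hspa1a, Hspa1b, Hspa8, Hsp90aa1, Hsp90ab1, Hsph1, Dnajb1, Hspb1, Bag3 and Cryab), and each was represented by the brightest array row that the platform annotation pairs with its symbol alone. Of these 10 genes, 9 had such a row among the 22180 genes tested, all 9 entered every test because no filter on low values was used, and Hsp90ab1, which had none, was not analysed here. Total RNA was hybridised to Affymetrix whole-transcript arrays, 1 array per mouse and 12 in all. The groups, each of 3 mice, were KO_male (Ciz1-/- males), WT_male (control males), KO_female (Ciz1-/- females) and WT_female (control females). The controls are wild type by source name and Ciz1+/+ in the protocol, whereas their genotype field has Ciz1+/-. Mice were 10 months old by the protocol, while the design text allows 6 to 10 months. The loss of Ciz1 is called germline in the title, with no account in the labels of how the allele was built. Nothing in the labels says whether mice of a group were littermates, and p-values set differences against the spread between these mice.

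Heat shock factors are transcription factors that are held inactive by chaperones and released when unfolded proteins accumulate. They then bind heat shock elements, repeats of the letters GAA in alternating orientation, in front of chaperone genes. The HSP70 proteins bind exposed hydrophobic stretches of other proteins, HSP40 proteins deliver clients to them, HSP110 proteins exchange their nucleotide, HSP90 acts on later folding steps, and small heat shock proteins hold unfolded proteins in solution. In brain, some of these genes are transcribed at all times and others mainly after stress, and neurons are known to induce HSP70 less readily than glia and blood vessels do.

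The stress-inducible HSP70 pair is shown first because Hspa1a and Hspa1b gave the widest spread between mice, and their promoters are close copies. RefSeq promoters of assembly GRCm38.p6 were found for 6 of the 10 genes, in 8 entries. The 250 bases before the start are printed 5′ to 3′ with paired GAA units in capitals. Hspa1a lies at chr17:34972157-34972406 on the minus strand and Hspa1b at chr17:34959239-34959488 on the minus strand, and the genes are neighbours. Aligned, the stretches were identical at 247 of 250 positions, or 98.8%.
Hspa1a: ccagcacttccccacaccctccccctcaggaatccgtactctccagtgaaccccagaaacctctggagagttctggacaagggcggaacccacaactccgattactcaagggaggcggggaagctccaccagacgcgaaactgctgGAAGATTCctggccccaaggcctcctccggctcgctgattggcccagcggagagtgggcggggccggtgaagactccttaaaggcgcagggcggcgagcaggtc
Hspa1b: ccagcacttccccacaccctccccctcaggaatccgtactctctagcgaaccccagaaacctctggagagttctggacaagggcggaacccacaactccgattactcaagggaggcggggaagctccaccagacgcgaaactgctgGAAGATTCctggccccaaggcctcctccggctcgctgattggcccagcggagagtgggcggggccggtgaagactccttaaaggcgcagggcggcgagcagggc
A pair of GAA units was searched as GAANNTTC or TTCNNGAA, each of which reads the same on both strands. One or the other was found in 12.8% of all 32851 promoter stretches of this length and in 4 of the 6 genes, Hspa1a, Hspa1b, Hspb1 and Hsph1. The first base of the pair lay 104 bases before the start in both Hspa1a and Hspa1b. Around their pairs, Hspb1 (chr5:135887782-135887849, plus strand) and Hsph1 (chr5:149636342-149636389, minus strand) read as follows.
Hspb1: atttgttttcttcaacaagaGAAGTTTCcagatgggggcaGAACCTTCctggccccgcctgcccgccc
Hsph1: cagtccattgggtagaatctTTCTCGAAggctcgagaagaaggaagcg
The stretch of Hspb1 held 2 pairs, and neither entry of Dnajb1 nor that of Bag3 held one. The same pair extended by a further unit in alternating orientation, searched on both strands, was in 0.466% of all stretches and in 0 of the 6 genes. The genes were chosen as known heat shock factor targets, and Hspa1a and Hspa1b are close copies, so these counts are no test. A gene was counted if any of its entries matched, whereas the percentages are of single stretches. These letter matches describe the sequences and say nothing on their own of factor binding.

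Ciz1 was lower in every knockout mouse, at 6.82 to 7.31 in KO_male and KO_female against 8.70 to 8.90 in WT_male and WT_female on the log2 intensity scale, and no array went against its genotype label. All levels below are log2 of the deposited intensity, and differences are knockout minus wild type on that scale. Array medians lay between 96.5 and 98.7 intensity units, and the number of arrays limits the precision. Markers of Purkinje cells averaged 11.52 to 11.69 and those of granule cells 11.12 to 11.27 per array. All 3 KO_female arrays stood apart on the first principal component of all genes (16% of the variance), at 10.72 to 16.01 against -12.18 to 3.54 in the other arrays.

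None of the 9 chaperone genes passed the test for genotype. Across both sexes 0 of 9 were past an adjusted p of 0.05 in limma, against 0.0225% of all genes, and 0 of 9 had an unadjusted p under 0.05, against 9.26% of all genes. On average 4 members differed by more than 0 and 5 by less than 0, with a median of -0.01 over the 9 genes and -0.00 over all genes. In no member were all 6 knockout mice on one side of all 6 wild-type mice, which held for 0.55% of all genes. In whole-tissue RNA, fewer cells of a type and less RNA per cell cannot be told apart.

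The constitutive HSP70 gene Hspa8, which encodes the HSC70 protein of resting cells, was the most even member between genotypes. Its level was 12.47, 12.46 and 12.41 in KO_male, 12.39, 12.50 and 12.51 in WT_male, 12.47, 12.45 and 12.42 in KO_female, and 12.45, 12.40 and 12.52 in WT_female. The groups overlapped throughout. The difference over both sexes was -0.01 (SE 0.04; 95% interval -0.10 to 0.08; limma adjusted p = 0.951). The table held 4 rows named for Hspa8 alone and 1 that also names a small nucleolar RNA. The 3 dimmer rows of its own name differed by 0.09 to 0.13 in males and by -0.04 to -0.08 in females, with a smallest limma adjusted p of 0.934 in a fit over all 41345 rows. The row shared with the small nucleolar RNA went the other way, by -0.16 (SE 0.10; limma adjusted p = 0.958) in males and 0.13 (SE 0.10; limma adjusted p = 0.8) in females. Its highest arrays were WT_male replicates 2 and 3, at 10.15 and 10.05, and KO_female replicate 3, at 10.0.

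The stress-inducible genes Hspa1a and Hspa1b varied most between mice. Hspa1a stood at 8.02, 8.15 and 8.01 in KO_male and at 8.06, 8.86 and 8.98 in WT_male. In females it stood at 7.98, 8.54 and 8.74 in KO_female and at 7.93, 8.22 and 8.11 in WT_female. Replicates 2 and 3 of WT_male and of KO_female were the 4 highest arrays, while the first replicate of each of these groups was as low as the KO_male and WT_female mice. Hspa1b had the same 4 arrays on top, with 8.18, 8.36 and 8.20 in KO_male and 8.08, 9.34 and 8.97 in WT_male. Hspa1b in females was 7.99, 8.83 and 8.90 in KO_female and 8.04, 8.42 and 8.06 in WT_female. The groups of each sex overlapped for both genes.

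**Figure D1:**
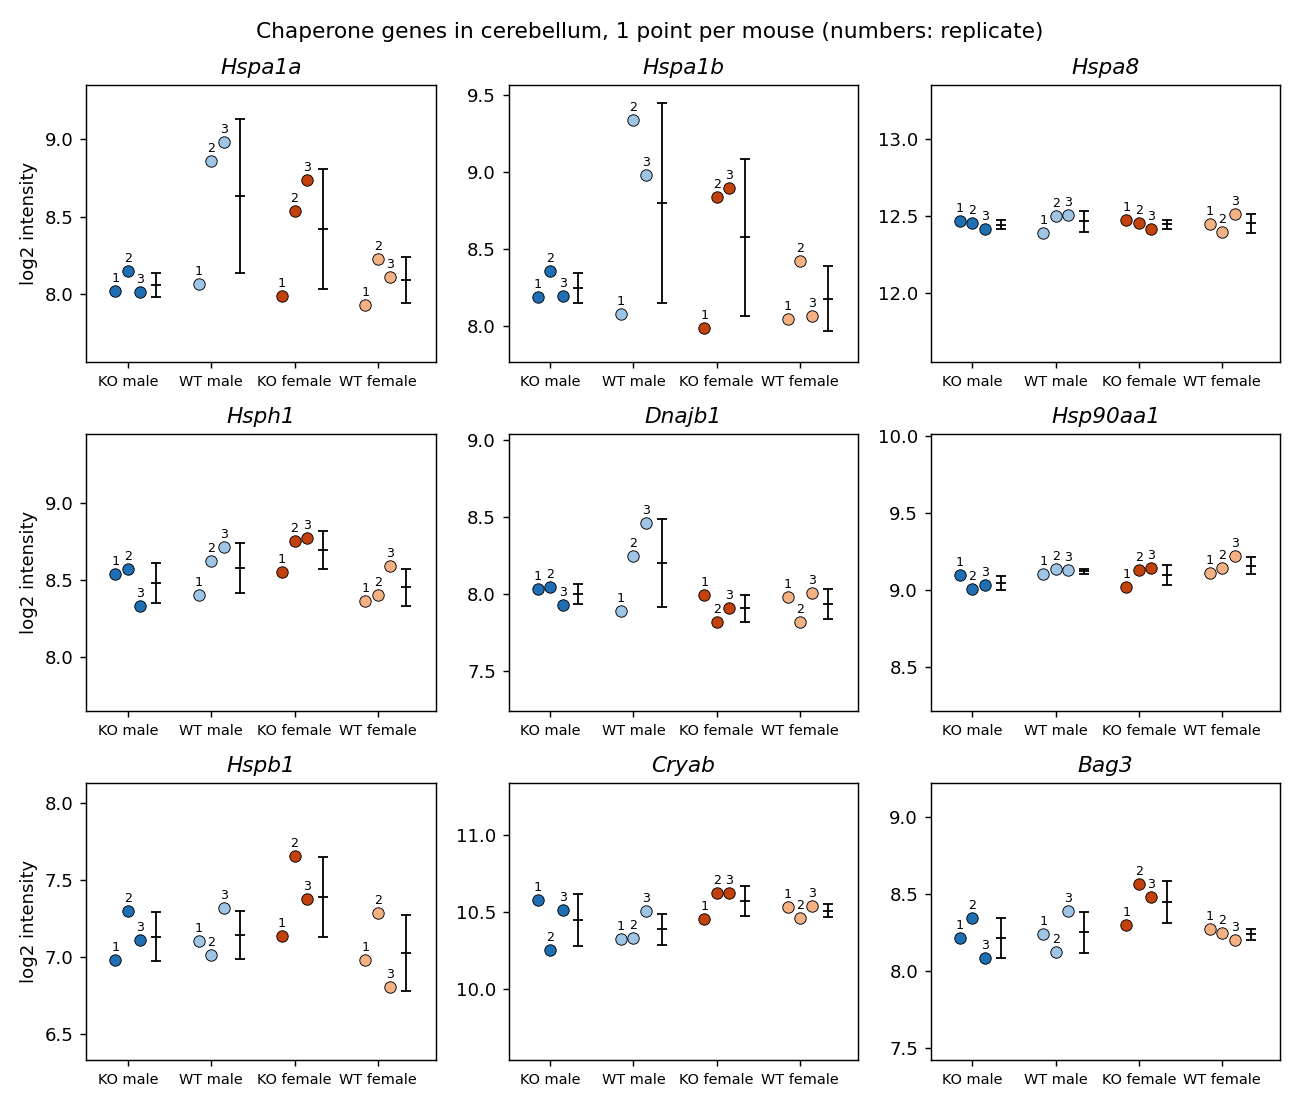
Log2 intensity of 9 chaperone genes (y axis, all panels spanning the same range) in KO_male, WT_male, KO_female and WT_female mice (x axis, 3 mice each). Points are mice, numbered by replicate, and the bar beside each group is the mean ± SD (n = 3). Hspa1a and Hspa1b are high in replicates 2 and 3 of WT_male and KO_female, whereas Hspa8 and Hsp90aa1 stay level.

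The genotype difference of the inducible pair was below 0 in males and above 0 in females, and passed in neither. Hspa1a averaged 8.06 ± 0.08 in KO_male and 8.63 ± 0.50 in WT_male (SD, n = 3 each), a difference of -0.58 (SE 0.23; 95% interval -1.07 to -0.08; limma adjusted p = 0.874). In females it averaged 8.42 ± 0.39 in KO_female and 8.09 ± 0.15 in WT_female (SD, n = 3 each), a difference of 0.33 (SE 0.23; 95% interval -0.16 to 0.83; limma adjusted p = 0.725). For Hspa1b the differences were -0.55 (SE 0.29) in males and 0.40 (SE 0.29) in females. The test of the difference between the sexes gave 0.91 (SE 0.32; unadjusted p = 0.0154; limma adjusted p = 0.99) for Hspa1a and 0.95 (SE 0.42; unadjusted p = 0.0419; limma adjusted p = 0.998) for Hspa1b. Neither passed. The value of Hspa1b in males was -0.28 without WT_male replicate 2 and -0.91 without WT_male replicate 1, and that in females was 0.24 without KO_female replicate 3 and 0.69 without KO_female replicate 1. The value of Hspa1a in males was -0.40 without WT_male replicate 3 and -0.86 without WT_male replicate 1, and that in females was 0.17 without KO_female replicate 3 and 0.55 without KO_female replicate 1.

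The 2 genes encode nearly the same protein, and signal from 1 gene on probes of the other cannot be told apart here. Another row, annotated to both genes, gave 5.86, 5.64 and 5.81 in KO_male, 5.95, 6.29 and 6.36 in WT_male, 5.94, 6.26 and 6.32 in KO_female, and 6.06, 5.95 and 5.76 in WT_female. Its 4 highest arrays were the same as those of the single-gene rows. It differed by -0.43 (SE 0.14) in males and by 0.25 (SE 0.14) in females, with limma adjusted p of 0.912 and 0.706 over all 41345 rows.

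Lists that could move with these arrays were read beside them. The 15 immediate early genes, which answer to activity and handling, averaged 8.05 and 7.85 in KO_female replicates 2 and 3 and 8.30 and 8.21 in WT_male replicates 2 and 3. Their group ranges were 7.88 to 8.15 in KO_male, 8.21 to 8.33 in WT_male, 7.85 to 8.05 in KO_female and 8.06 to 8.38 in WT_female. All 15 averaged lower in the knockout over both sexes and 0 passed, with Nr4a2 at -0.68 (SE 0.13), Nr4a1 at -0.44 (SE 0.14), Fosb at -0.33 (SE 0.10), Dusp1 at -0.32 (SE 0.08) and Egr1 at -0.14 (SE 0.05). In limma 10 of the 15 had an unadjusted p under 0.05, all lower, against 9.26% of all genes in either direction. Among the 9 measured choroid plexus markers, which include Ttr, the mean level was 8.05 and 7.05 in KO_female replicates 2 and 3 and 7.29 and 7.32 in WT_male replicates 2 and 3, within a range of 6.65 to 8.40 over all arrays. The 4 arrays were neither the 4 highest nor the 4 lowest of either list. Both list means also averaged lower in the knockout groups, and whether either list moved with Hspa1a and Hspa1b was not tested. The cold-inducible gene Cirbp, whose RNA rises when body temperature falls, stood at 7.45 to 7.81 over all arrays, and its partner Rbm3 had no row of its own. RNA quality was not recorded in the labels, and its part was not tested.

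The members differed widely in their spread between mice. The SD between mice of a group, pooled over the 4 groups, was 0.43 for Hspa1b and 0.33 for Hspa1a. Among the 1000 genes closest to each in brightness the median SD was 0.08, and 100% and 99.8% of these genes had a smaller one. Hspb1 (SD 0.21, above 97.6% of like-bright genes), Hsph1 (0.13, above 93.5%), Dnajb1 (0.16, above 92.8%) and Cryab (0.11, above 91.9%) were also on the wide side. Bag3 had an SD of 0.12, above 80.4%. Hsp90aa1 and Hspa8 had an SD of 0.05 each, above 14% and 24.6% of like-bright genes. These percentages describe the 12 arrays and carry no test.

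**Figure D2:**
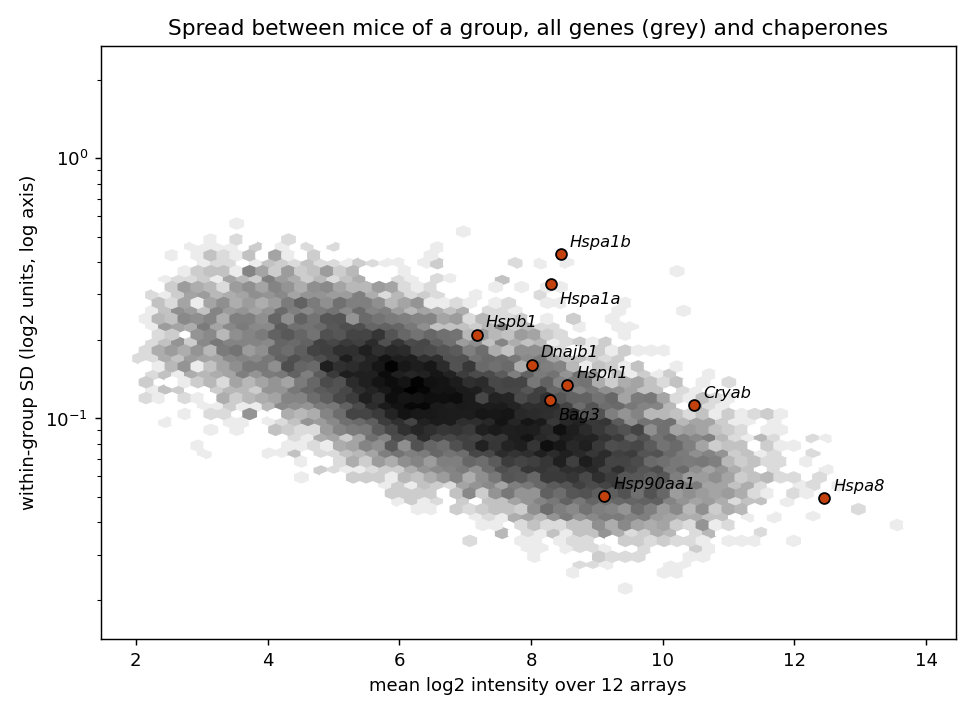
Within-group SD of log2 intensity (y axis, log scale) against mean log2 intensity over 12 arrays (x axis) for all 22180 genes (grey, darker where more genes lie) and the 9 chaperone genes (orange points). Hspa1b and Hspa1a sit at the upper edge for their brightness, and Hsp90aa1 sits low.

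Hsph1 encodes the HSP110 protein that recharges HSP70 with ATP. It stood at 8.54, 8.57 and 8.33 in KO_male, 8.40, 8.62 and 8.71 in WT_male, 8.55, 8.75 and 8.77 in KO_female, and 8.36, 8.40 and 8.59 in WT_female. The upper 2 KO_female mice were the highest of the 12, and the groups overlapped in both sexes. The difference was -0.10 (SE 0.10; limma adjusted p = 0.968) in males and 0.24 (SE 0.10; limma adjusted p = 0.559) in females, and the interaction of 0.34 (SE 0.15) had an unadjusted p of 0.0384 and a limma adjusted p of 0.998.

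Dnajb1, the HSP40 co-chaperone that hands clients to HSP70, stood at 8.03, 8.05 and 7.93 in KO_male and 7.89, 8.25 and 8.46 in WT_male. In females the values were 7.99, 7.82 and 7.91 in KO_female and 7.98, 7.82 and 8.0 in WT_female. Replicates 2 and 3 of WT_male were again the highest, but the KO_female mice that were high for Hspa1a were not. The difference was -0.20 (SE 0.12; 95% interval -0.46 to 0.06) in males and -0.03 (SE 0.12; 95% interval -0.29 to 0.23) in females. The male value was -0.07 without WT_male replicate 3 and -0.35 without WT_male replicate 1.

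Hsp90aa1, the inducible HSP90 gene, was the 1 member whose male groups did not overlap, with 9.10, 9.01 and 9.04 in KO_male against 9.11, 9.14 and 9.13 in WT_male. Such a separation held for 10.3% of all genes in males, and for 5.64% with the knockout lower, so 1 of 9 members was near the background. The difference was -0.08 (SE 0.06; 95% interval -0.20 to 0.05; limma adjusted p = 0.948). In females the values were 9.02, 9.13 and 9.14 in KO_female and 9.12, 9.14 and 9.23 in WT_female, and the groups overlapped.

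Bag3 encodes the co-chaperone that joins HSP70 to small heat shock proteins and steers clients to autophagy. It stood at 8.30, 8.57 and 8.48 in KO_female against 8.27, 8.25 and 8.20 in WT_female, and these groups did not overlap. In females 14.9% of all genes showed groups that did not overlap, and 7.46% with the knockout higher, against 1 of 9 members. The difference was 0.21 (SE 0.09; 95% interval 0.01 to 0.41; limma adjusted p = 0.575). In males the values were 8.21, 8.34 and 8.08 in KO_male and 8.24, 8.12 and 8.39 in WT_male, a difference of -0.04 (SE 0.09).

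Hspb1, a small heat shock protein that also caps actin, stood at 7.14, 7.66 and 7.38 in KO_female and 6.98, 7.29 and 6.81 in WT_female, with overlap. The female difference was 0.37 (SE 0.15; 95% interval 0.04 to 0.69; limma adjusted p = 0.544). It was 0.23 without KO_female replicate 2, and 0.09 (SE 0.25) with the level of the oligodendrocyte markers as a covariate. Those markers were lower in the knockout, with no overlap between the female groups, so this fit cannot separate their level from genotype. In males it stood at 6.98, 7.30 and 7.11 in KO_male and 7.11, 7.01 and 7.32 in WT_male, a difference of -0.01 (SE 0.15). A second, dimmer Hspb1 row differed by 0.11 (SE 0.09) in females. Hspb1 is known in brain from blood vessels, and the mean of 14 endothelial and mural markers ranged from 7.65 to 7.89 in KO_female against 7.59 to 7.72 in WT_female. Its part in the Hspb1 values was not tested.

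Cryab encodes alpha-B crystallin, the small heat shock protein of oligodendrocytes and astrocytes. It stood at 10.57, 10.25 and 10.51 in KO_male, 10.32, 10.33 and 10.50 in WT_male, 10.45, 10.62 and 10.62 in KO_female, and 10.53, 10.46 and 10.54 in WT_female. The difference was 0.06 in both males and females (SE 0.09 each), with a 95% interval of -0.14 to 0.25 in males and -0.14 to 0.26 in females. Over the same arrays, all 12 measured oligodendrocyte markers averaged lower in the knockout, with a mean level of 8.73 to 8.82 in KO_female against 9.09 to 9.23 in WT_female and 8.78 to 9.16 in KO_male against 9.04 to 9.22 in WT_male. Over both sexes all 12 had an unadjusted p under 0.05 in limma, against 9.26% of all genes in either direction. In females 10 of the 12 did, all lower, against 8.49%. In males 0 of the 12 did, against 5.42%, with 11 below 0 and 1 above. The median difference of the 12 was -0.34 in females and -0.15 in males. Of the 12, Opalin was the 1 gene that passed, against 0.0225% of all genes, by -0.45 over both sexes (SE 0.06; limma adjusted p = 0.0369). Opalin also passed in females, by -0.72 (SE 0.08; limma adjusted p = 0.0144), but not in males, at -0.19 (SE 0.08; limma adjusted p = 0.91). With the level of these markers as a covariate, the Cryab difference over both sexes was 0.27 (SE 0.09; limma adjusted p = 0.591). That level was itself lower in the knockout, with no overlap between the female groups, so this fit cannot separate it from genotype. A second, dimmer row named for Cryab alone gave another picture in females, at 7.76, 7.90 and 7.94 in KO_female against 8.22, 8.09 and 8.15 in WT_female, a difference of -0.29 (SE 0.12; limma adjusted p = 0.629 over all 41345 rows). The rows of Cryab thus differed in direction in females, and neither passed.

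By sex of the mice, the counts were as follows. In males 0 of 9 members passed in limma, against 0.0225% of all genes, and 1 of 9, Hspa1a, had an unadjusted p under 0.05, against 5.42% in either direction and 2.8% lower in the knockout. In females 0 of 9 passed, against 0.0225%, and 3 of 9 (Hsph1, Hspb1 and Bag3, all higher in KO_female) had an unadjusted p under 0.05, against 8.49% in either direction and 4.52% higher. The median over the 9 members was -0.08 in males and 0.21 in females, while that over all genes was -0.00 and 0.00. For the interaction 0 of 9 passed, against 0% of all genes, and 3 of 9 (Hspa1a, Hspa1b and Hsph1) had an unadjusted p under 0.05, against 4.82% in either direction and 2.54% above 0. Several members move together across mice, so these counts are not counts of independent genes.

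**Figure D3:**
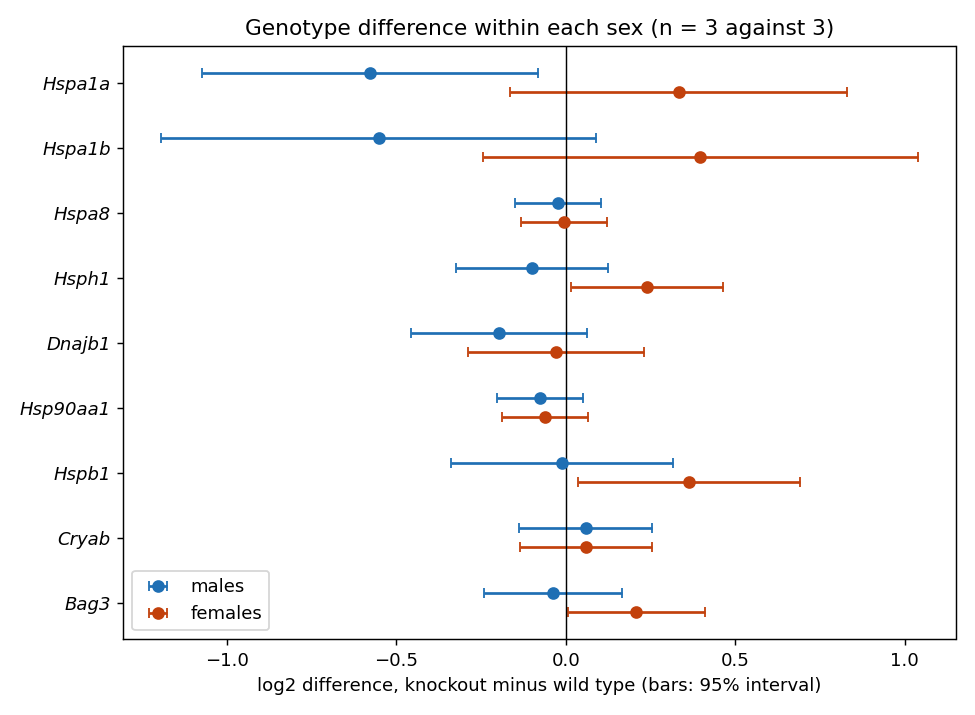
Log2 difference in intensity, knockout minus wild type (x axis), for each chaperone gene (y axis) in males (blue) and females (orange), with 95% intervals from limma (3 mice against 3). The intervals of Hspa1a and Hspa1b are the widest and those of Hspa8 and Hsp90aa1 the narrowest.

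Females were also set against males over both genotypes. In this comparison 0 of 9 members passed in limma, against 0.0361% of all genes, and 0 of 9 had an unadjusted p under 0.05, against 7.93%. Dnajb1 differed by -0.18 (females minus males, SE 0.08; limma adjusted p = 0.635) and Cryab by 0.12 (SE 0.06; limma adjusted p = 0.669). Dnajb1 was at -0.12 without WT_male replicate 3, and Cryab at 0.07 without KO_male replicate 2. Outside the members, the listed genes with the smallest p were Sdf2l1, Xbp1 and Manf, all higher in females when averaged over genotype. They belong to a list of ER chaperones and other genes of the unfolded protein response. Sdf2l1 differed by 0.46 (SE 0.08, limma adjusted p = 0.17), Xbp1 by 0.25 (SE 0.04, limma adjusted p = 0.171) and Manf by 0.26 (SE 0.05, limma adjusted p = 0.338). Of 17 genes of this ER list, 9 were higher with an unadjusted p under 0.05, against 7.93% of all genes in either direction. The differences lay mostly between the knockout groups. Sdf2l1 averaged 9.36 in KO_female against 8.48 in KO_male, and 8.51 in WT_female against 8.48 in WT_male. The mean level of the ER list was 9.47 in KO_female against 9.22 in KO_male, and 9.20 in WT_female against 9.19 in WT_male. Lower in females, Nr4a2 differed by -0.37 (SE 0.13, limma adjusted p = 0.595) and Cirbp by -0.17 (SE 0.06, limma adjusted p = 0.581). Hsf3 had a mean level of 3.37, with 2.95% of genes dimmer, and its difference of -0.19 (SE 0.06; limma adjusted p = 0.581) lies near the floor of the array. In no member were all females on one side of all males, which held for 0.469% of all genes.

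Within groups, the deviations of the members from their group means were compared over the 12 arrays as a description, with no test. The arrays share extraction and hybridisation between genes, and 4 group means were removed. Over the 36 pairs of members Pearson's r had a median of 0.34, with 32 pairs above 0. The pair Hspa1a and Hspa1b had an r of 0.94 (Spearman's rho 0.89), which was 0.78 without the 2 arrays farthest from the median of Hspa1a. For this pair, signal from 1 gene on probes of the other cannot be told apart. Hspa8 and Dnajb1 had an r of 0.83 (rho 0.90), which was 0.62 without 2 arrays chosen the same way. Hspa1a and Hsph1 had an r of 0.78 (rho 0.68, and r of 0.56 without 2 arrays), and Hspb1 and Bag3 an r of 0.73 (rho 0.73, and r of 0.78 without 2 arrays). Ranked by level, with group means kept, WT_male replicate 3 was among the 4 highest arrays for 7 of the 9 members and among the 4 lowest for 0. KO_female replicate 3 was among the highest for 7 and the lowest for 2, KO_female replicate 2 for 6 and 1, and WT_male replicate 2 for 6 and 3.

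**Figure D4:**
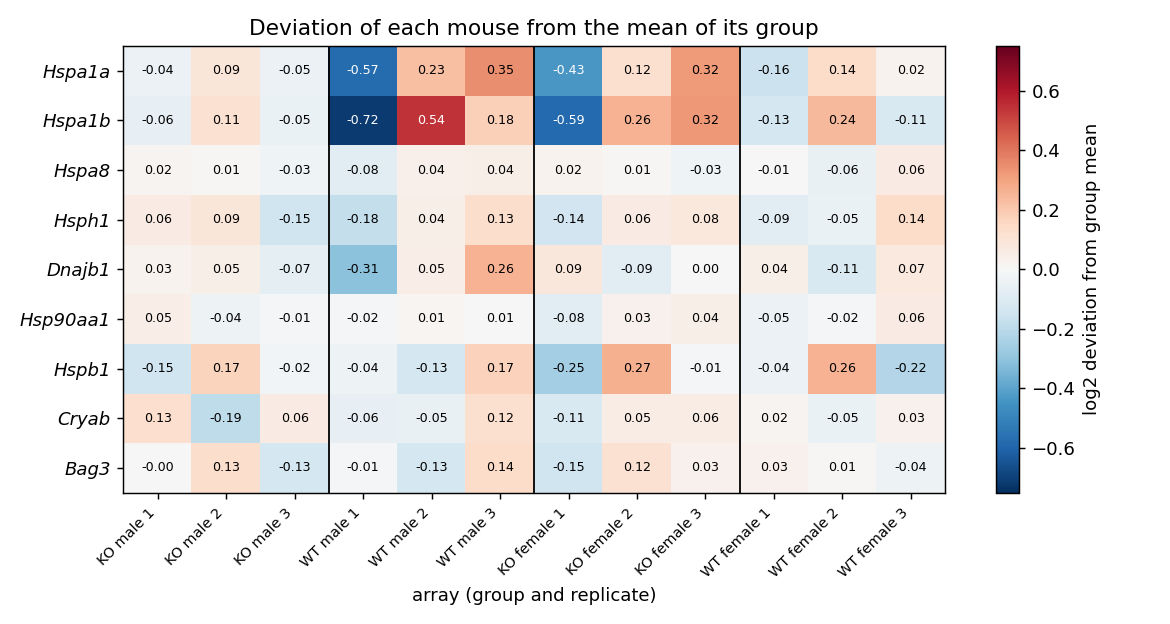
Deviation of log2 intensity from the mean of the mouse's own group (colour and printed value) for 9 chaperone genes (rows) in 12 arrays (columns, grouped as KO_male, WT_male, KO_female and WT_female). The first replicates of WT_male and KO_female lie lowest for Hspa1a and Hspa1b, at -0.57 and -0.72 in WT_male and -0.43 and -0.59 in KO_female.

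Among 11089 genes above the median brightness, those whose deviations were most like Hspa1b over the 12 arrays were Cebpg (Pearson's r 0.94), Hspa1a (0.94) and Atp6ap2 (0.93). For Hspa8 they were Stt3b (0.90), Tgoln1 (0.90) and Iqcn (0.90), and for Cryab Phf21a (0.92), Tbc1d2b (0.92) and Cdan1 (0.91). With so many genes searched over so few arrays, these are descriptions of these mice. The likeness of Hspa1a to Hspa1b has the limit on shared probe signal given above.

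The rest of the chaperone system was read from lists of its classes. Of 65 further cytosolic and mitochondrial chaperones, co-chaperones and heat shock factors, 60 were measured and 0 passed for genotype in limma over both sexes, in males or in females. Over both sexes 31 of the 60 differed by more than 0 and 29 by less, with a median of 0.00. An unadjusted p under 0.05 was found for 2 higher and 3 lower genes of the 60, against 9.26% of all genes in either direction. In males 22 were above 0 and 38 below (median -0.03), and in females 40 were above and 20 below (median 0.03). Of all 22180 genes, 10665 were above 0 and 11515 below in males, and 11229 above and 10951 below in females.

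Hsf1, the main heat shock factor, had no row of its own and was not analysed here. Hsf2, which acts with it, stood at 8.39, 8.12 and 8.17 in KO_male, 8.43, 8.53 and 8.33 in WT_male, 8.26, 8.20 and 8.25 in KO_female, and 8.21, 8.20 and 8.03 in WT_female. The male groups overlapped, with a difference of -0.20 (SE 0.08; limma adjusted p = 0.874), and the female difference was 0.09 (SE 0.08). Over both sexes the dim row of Hsf3 differed by 0.04, Hsf4 by -0.03, Hsf5 by 0.11 and Hsbp1, which encodes a protein that binds heat shock factor trimers, by 0.10, with none past the threshold.

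Hspb8, the small heat shock protein that works with Bag3, had the smallest interaction p among the cytosolic classes. It stood at 7.29, 7.45 and 7.10 in KO_male and 7.55, 7.34 and 7.57 in WT_male, and at 7.52, 7.46 and 7.67 in KO_female and 7.23, 7.35 and 7.18 in WT_female. The female groups did not overlap and the male groups did. Groups that did not overlap in females were found for 14.9% of all genes, and for 7.46% with the knockout higher. Hspb8 was picked by its interaction p, so its separation is no further evidence. The difference was -0.21 (SE 0.10) in males and 0.30 (SE 0.10) in females, and that between the sexes was 0.50 (SE 0.14; unadjusted p = 0.00416; limma adjusted p = 0.99).

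Among the 18 measured HSP90 and HSP70 co-chaperones, 10 differed by more than 0 and 8 by less over both sexes, with a median of 0.01. Stip1, the adaptor between HSP70 and HSP90, differed by 0.16 (SE 0.06) in females and -0.03 in males, and Fkbp4 by 0.01 in females and -0.14 in males. Ptges3 had an interaction of -0.31 (SE 0.16). Among the 7 other HSP70 and HSP110 genes 4 were above 0, with Hspa1l at 0.20 (SE 0.08), Hspa4l at -0.10 (SE 0.04) and an interaction of Hspa2 at -0.18 (SE 0.15). Of the 12 other HSP40 genes 5 were above 0, and Dnajb4 differed by 0.09 (SE 0.06) in males.

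The 8 subunits of the chaperonin TRiC, which folds actin and tubulin, were all below 0 in males, with a median of -0.06, and 3 of 8 were above 0 in females. Tcp1 differed by -0.12 (SE 0.04) and Cct2 by -0.13 (SE 0.06) over both sexes. Of 6 mitochondrial chaperones 4 were above 0, with Hspe1 at 0.12 (SE 0.05). Of the 4 other small heat shock proteins 2 were above 0. None of the genes in these classes passed. Stip1, Fkbp4, Hspa1l, Hspa4l, Tcp1, Cct2 and Hspe1 were picked as examples once their values were known.

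The ER list held ER chaperones and other genes of the unfolded protein response, such as Xbp1 and Ddit3. Its genes answer to that response and not to heat shock factors alone. Of 17 measured, 15 were above 0 over both sexes, with a median of 0.14, and 0 past the threshold. In females the median was 0.23, 14 of 17 had an unadjusted p under 0.05, all higher, against 8.49% of all genes in either direction and 4.52% higher, and Sdf2l1 rose by 0.85 (SE 0.11; limma adjusted p = 0.0321), while Hspa5 differed by 0.47 (SE 0.07; limma adjusted p = 0.0626) and Creld2 by 0.47 (SE 0.07; limma adjusted p = 0.0786). Over both sexes Pdia6 differed by 0.23 (SE 0.04; limma adjusted p = 0.165), Manf by 0.23 (SE 0.05; limma adjusted p = 0.246) and Xbp1 by 0.19 (SE 0.04; limma adjusted p = 0.253). By sex, Pdia6 differed by 0.09 in males and 0.37 in females, Manf by 0.05 and 0.41, and Xbp1 by 0.04 and 0.34. In males Sdf2l1 differed by 0.01 (SE 0.11), Hspa5 by -0.03 (SE 0.07) and Ddit3 by 0.19 (SE 0.08). The interaction was 0.84 (SE 0.16; limma adjusted p = 0.528) for Sdf2l1 and 0.50 (SE 0.10; limma adjusted p = 0.532) for Hspa5. The mean level of the ER list was 9.46 to 9.49 in KO_female, against 9.18 to 9.21 in WT_female, with no overlap.

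**Figure D5:**
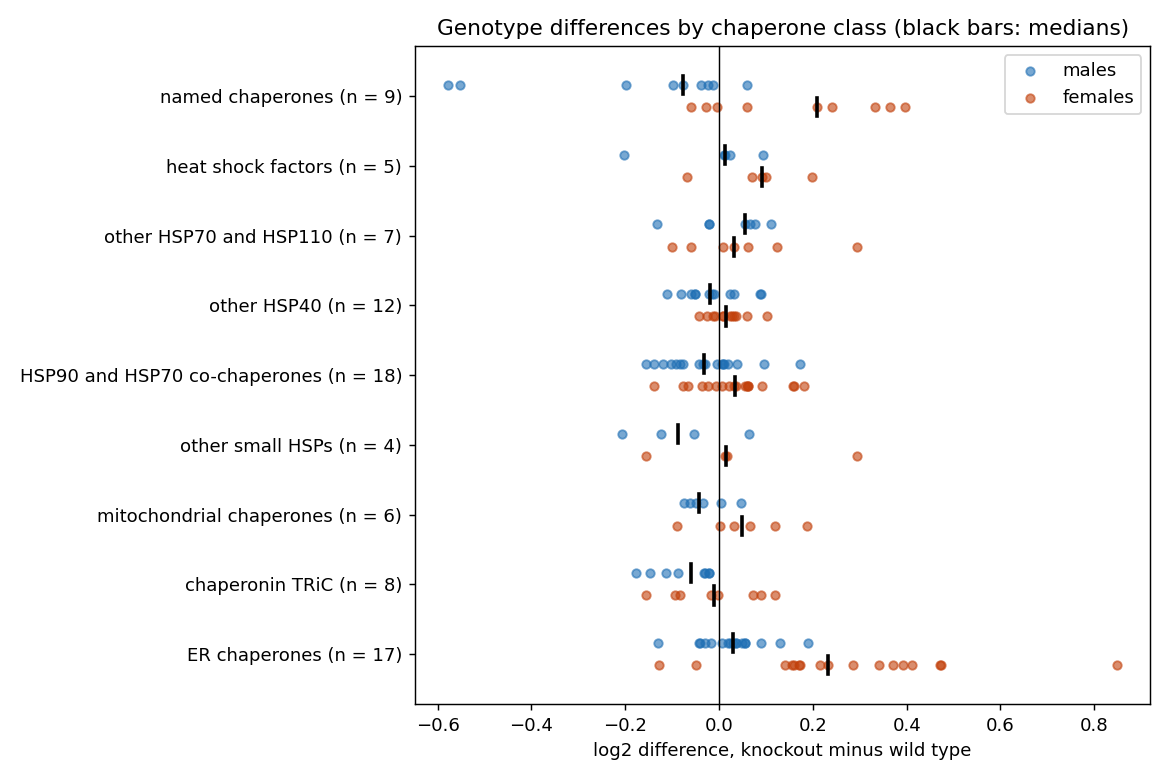
Log2 difference in intensity, knockout minus wild type (x axis), of single genes (points) by chaperone class (y axis, n measured genes) in males (blue) and females (orange), with black bars for class medians. The 9 named chaperones spread from -0.58 to 0.40, most other classes lie close to 0, and the ER class lies to the right in females.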

How the data were processed

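The deposited values are intensities on a linear scale that the authors obtained with RMA from core exons, per the labels. RMA corrects background, normalizes quantiles and sums probes, so array medians are alike. The submitters' processing notes name Affymetrix Expression Console and Transcriptome Analysis Console 3.0, and the genome build of the array is not given in the sources used here. Here log2 of each value was taken, with no pseudocount and no further scaling. Of 41345 rows, 23521 had 1 platform symbol, 1814 several and 16010 none. The brightest row per symbol gave 22180 genes, of which 1082 had several rows.

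A mean per group was fitted over all 12 arrays with limma 3.58.1 in R 4.3.3, moderated with eBayes and tested two-sided with Benjamini-Hochberg adjustment over all genes at a threshold of 0.05. The fit was tested on simulated data. The contrasts were genotype over both sexes and in each sex, their difference (females minus males) and sex. Groups came from the source names, and replicate numbers only name a mouse. The genes and lists were chosen with earlier results of these data known. Named were the 10 genes, Ciz1, heat shock factors, cold-inducible genes, any list gene past the threshold, the 3 list genes with the smallest p per direction and contrast, and the 3 genes most like Hspa1b, Hspa8 and Cryab. Promoters came from RefSeq. Alternatives changed the moderation, normalization, row choice, brightness filter, array weights, marker covariates and single arrays.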

Additional observations from a re-analysis of the deposited data

Results flagged for a closer look

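Hsp90aa1 stood at 9.23 in WT_female replicate 3. Among the 6 wild-type arrays its gap to the next value was 0.69 of their range, past Dixon's 95% critical value for 6 samples. It was the 1 extreme value found in 18 sets of 6 arrays (9 genes in KO and in WT arrays), and chance alone gives about 1 in 20 such sets.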

How the results depend on the processing

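Under all 21 alternatives 0 of the 9 members passed in each of the 5 comparisons, and the smallest limma adjusted p was 0.333, for Hspb1 in females over genes above the median brightness. No member difference was called, and its sign changed in 10 of 189 values over both sexes, 8 in males, 10 in females, 15 for the interaction and 9 for sex. With the oligodendrocyte marker level as a covariate Cryab moved to 0.35 and Hspb1 to 0.09 in females. That level did not overlap between the female groups, so these fits cannot separate it from genotype. With the mean of all rows Cryab in females was -0.11. The cause of these moves was not tested. The number of genes past the threshold over the whole table was 5, 5, 5, 0 and 8 for genotype over both sexes, males, females, the interaction and sex, against 18, 5, 26, 2 and 15 with an intensity trend and, where only the brighter genes were tested, 14, 5, 16, 2 and 13. With the oligodendrocyte covariate it was 2, 2, 1, 0 and 6, and with the choroid plexus covariate 3, 4, 4, 0 and 7. Leaving out 1 array gave 3 to 8 genes over both sexes, 2 to 4 in males, 3 to 7 in females, 0 to 1 for the interaction and 6 to 8 for sex. The fits of further rows named for a member were added after seeing the data. No paired analysis was possible because the labels give the mice no shared replicate numbers. With 3 arrays per group, a difference in 1 sex was imprecise for the inducible pair (95% interval -0.16 to 0.83 for Hspa1a in females), and no detection call per probe was used.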
